A study of Homo sapiens with 50 samples.

Results

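LIN28A, LIN28B, HMGA2, IGF2BP1, IGF2BP2 and IGF2BP3 are regulators of the embryonic state that are linked by the let-7 microRNAs. The 6 genes were taken by gene symbol from the 57905 genes of the deposited tables; each symbol had 1 row, and all 6 passed the filter on low values in both tables. The cells were H1, an established human embryonic stem cell line with an unmodified genotype, and RNA-seq was made from 50 libraries in 25 groups of 2. Undifferentiated cells were collected on day 0. The other 24 groups were differentiating H1 cultures, collected on days 3, 5, 7 and 11 in 6 conditions. They were the differentiation control, HCl (acid), NaHCO3 (bicarbonate, a base) and IWP2 (an inhibitor of WNT secretion). In the remaining conditions NaHCO3 was added on top of IWP2, and 2-DG (2-deoxyglucose, which blocks glycolysis) on top of both. The study asked how pH changes bear on spontaneous mesendoderm differentiation and on WNT inhibitor-driven cardiac differentiation. The labels give no doses or times of addition, and they do not say whether the 2 libraries of a group came from separate cultures, so the p-values measure only the spread between these libraries.

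LIN28A and LIN28B are RNA-binding proteins that hold the precursors of let-7 and keep them from being cut into mature let-7, in part by recruiting enzymes that add uridines to the precursor. Mature let-7 in turn represses LIN28A and LIN28B, HMGA2 and the IGF2BP genes through sites in their 3′ untranslated regions. HMGA2 is a chromatin protein that binds AT-rich DNA and marks growing, undifferentiated tissue. IGF2BP1, IGF2BP2 and IGF2BP3 bind mRNAs, among them that of the growth factor IGF2, and affect their stability, location and translation.

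The let-7 sequences are shown because they tie the 6 genes to 1 seed. All 9 mature let-7 family members found in the RefSeq table for GRCh38.p14 carry the same bases 2 to 8, GAGGUAG, which are in capitals in these 3 examples.
hsa-let-7a-5p: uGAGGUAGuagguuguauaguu
hsa-let-7g-5p: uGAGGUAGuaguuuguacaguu
hsa-miR-98-5p: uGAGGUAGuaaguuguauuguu
LIN28 proteins are known to bind a GGAG motif in the let-7 precursor, read on the transcribed strand only. GGAG was found in 9 of 12 let-7 family hairpins (75%), against 43.03% of the 1090 hairpins of the same length range. The hairpin of let-7g holds the motif, in capitals, and that of let-7a-3 does not.
let-7g hairpin, GRCh38.p14 chr3:52268278-52268361, minus strand: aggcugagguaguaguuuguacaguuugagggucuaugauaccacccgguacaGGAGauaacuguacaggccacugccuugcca
let-7a-3 hairpin, GRCh38.p14 chr22:46112749-46112822, plus strand: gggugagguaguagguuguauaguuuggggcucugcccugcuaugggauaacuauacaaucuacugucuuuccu
These libraries do not measure mature microRNAs.

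The match to the let-7 seed, CTACCTC, was searched on the transcribed strand of the 3′ untranslated region of 1 transcript per gene, an APPRIS principal one where annotated and the one with the longest such region among these (GENCODE release 29, GRCh38). It was found in all 6 genes, against 8.657% of 18794 protein-coding genes, whose regions had a median length of 887 bases. HMGA2 had 4 matches in 3003 bases, LIN28B 4 in 4549 bases and IGF2BP1 4 in 6206 bases. Of regions of like length, 2 of 2014 had as many as HMGA2, 3 of 1287 as many as LIN28B and 4 of 719 as many as IGF2BP1. LIN28A, IGF2BP2 and IGF2BP3 had 1 match each, a number that 16.79%, 11.67% and 11.92% of regions of their lengths reached. The 6 genes are textbook let-7 targets, so these matches describe the set and are no result of the cultures. For each gene 1 site is given with 15 bases before the match; capitals mark the match and, where present, the A after it.
LIN28A site, GRCh38 chr1:26427348-26427370, plus strand: gcacagcctattgaaCTACCTCA
LIN28B site, GRCh38 chr6:105078812-105078834, plus strand: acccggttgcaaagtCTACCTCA
HMGA2 site, GRCh38 chr12:65963298-65963320, plus strand: gccaacgttcgatttCTACCTCA
IGF2BP1 site, GRCh38 chr17:49051061-49051083, plus strand: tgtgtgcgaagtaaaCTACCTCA
IGF2BP2 site, GRCh38 chr3:185644220-185644242, minus strand: aacacacagaagaagCTACCTCA
IGF2BP3 site, GRCh38 chr7:23311795-23311817, minus strand: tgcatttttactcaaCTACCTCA

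In the deposited tables, on GRCh37, LIN28A (ENSG00000131914) lies at chr1:26737269-26756213 and LIN28B (ENSG00000187772) at chr6:105404923-105531207. HMGA2 (ENSG00000149948) lies at chr12:66217911-66360075 and IGF2BP1 (ENSG00000159217) at chr17:47074774-47133012, and these 4 genes are on the plus strand. IGF2BP2 (ENSG00000073792) at chr3:185361527-185542844 and IGF2BP3 (ENSG00000136231) at chr7:23349828-23510086 are on the minus strand. IGF2BP3 overlaps MALSU1 on the opposite strand, which held up to 927 counts in a library against a lowest IGF2BP3 count of 602, and whether the counting used strand is not given in the sources used here. No other overlapping gene had more than 34 counts in any library.

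The libraries held 14090004 to 22796553 counts. The deposited values came as 2 tables, one of days 3 and 5 (24 libraries) and one of days 0, 7 and 11 (26 libraries), and every test stayed within a table. Levels are given as FPKM, which divides counts by library size and by the summed exon length of the gene. Fold changes are log2 values from edgeR's quasi-likelihood test on the counts, scaled by TMM, so they can differ slightly from a ratio of FPKM values; their errors are standard errors (SE). A gene was called changed when its Benjamini-Hochberg adjusted p over all genes tested was below 0.05 and the change was at least 2-fold. In the IWP2, NaHCO3 and 2-DG group of day 3 the replicates stood apart: the log2 differences between its 2 libraries had an SD of 0.786 across genes, the widest of the 12 groups of days 3 and 5, among which the narrowest had 0.371. All libraries of a table shared 1 estimate of spread per gene. This pair therefore also entered the SE and p-values of day 3 and 5 comparisons that do not use it. For HCl against the control, the SE of IGF2BP3 was 0.227 on day 3 and 0.067 on day 7. The labels name the cell type of every sample ESC, but 8 pluripotency markers summed to 1951 to 1955 FPKM on day 0 and to at most 525 FPKM in any library of the other days.

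LIN28A was the most abundant of the 6 genes in undifferentiated cells and fell the most of them by day 11. It stood at 493.87 and 493.55 FPKM in the day 0 libraries. On day 7 the control libraries had 166.42 and 162.47 FPKM, and on day 11 they had 25.38 and 28.25 FPKM. In the control LIN28A fell by 4.30 on the log2 scale from day 0 to day 11 (SE 0.107, adjusted p = 5.454e-23, edgeR). On day 11 the lowest libraries were those of NaHCO3, at 8.89 and 8.94 FPKM, and of IWP2, NaHCO3 and 2-DG, at 6.91 and 10.09 FPKM; in the latter condition the log2 change from day 0 was -5.86 (SE 0.118). All 18 day comparisons of LIN28A among days 0, 7 and 11 were called lower at the later day, with log2 changes from -5.86 to -1.18.

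Before day 7 LIN28A was still high in every condition. Over the 24 libraries of days 3 and 5 its level ran from 135.16 FPKM, in a 2-DG library of day 5, to 363.77 FPKM, in an HCl library of day 3. The HCl libraries of day 3, at 305.17 and 363.77 FPKM, both lay above every other library of these 2 days. None of the 6 LIN28A comparisons of day 5 with day 3 reached 2-fold, and their log2 changes ran from -0.44 to 0.36.

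LIN28B, the paralog of LIN28A, began much lower per length and changed less. Undifferentiated cells had 51.08 and 54.66 FPKM, and the control had 40.78 and 40.74 FPKM on day 7 and 17.76 and 18.93 FPKM on day 11. Days 3 and 5 were not tested against these days. The control then had 29.03 and 25.32 FPKM on day 3 and 24.19 and 27.19 FPKM on day 5. Over the 24 libraries of days 3 and 5 LIN28B ran from 19.47 to 40.67 FPKM. From day 0 to day 11 LIN28B fell in all 6 conditions, with log2 changes from -3.14 (IWP2, NaHCO3 and 2-DG) to -1.05 (NaHCO3). On day 7 it was called lower than on day 0 only with IWP2, at 19.86 and 21.49 FPKM, and with IWP2, NaHCO3 and 2-DG, at 21.08 and 20.86 FPKM. The HCl cultures of day 7 had the highest group mean of days 0, 7 and 11, with 62.20 and 56.24 FPKM. Their log2 difference from day 0 was 0.05 (SE 0.0888, adjusted p = 0.674, edgeR). The NaHCO3 call of day 11 against day 0 ended without NaHCO3 replicate 1 of day 11 (log2 -0.98) and without day 0 replicate 2 (-0.99). From day 7 to day 11 LIN28B was called lower in 4 of 6 conditions; the IWP2 call (-1.03) ended without IWP2 replicate 2 of day 11 (-0.87), without IWP2 replicate 2 of day 7 (-0.98) and in limma on log2(FPKM + 1) (-0.97).

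**Figure D1:**
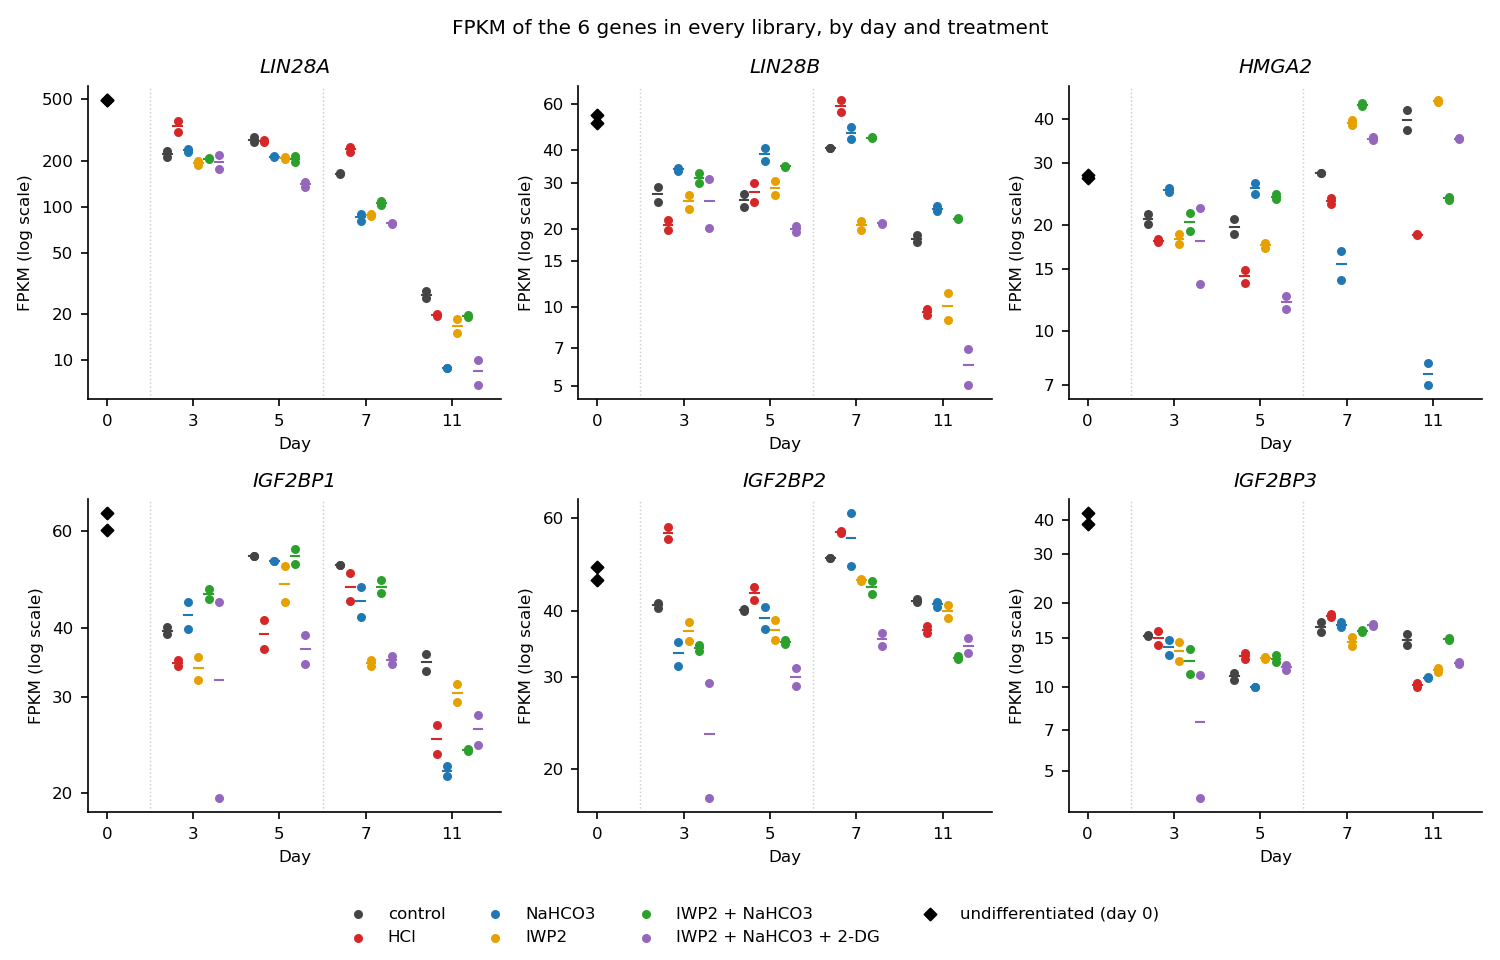
FPKM of the 6 genes (log scale, 1 panel each) in every library by day, with points for libraries and short bars for the means of 2 libraries; dotted lines separate the 2 deposited tables. LIN28A drops from 493.87 and 493.55 FPKM on day 0 to at most 28.25 FPKM on day 11.

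IGF2BP3 and IGF2BP1 also fell. IGF2BP3 stood at 42.11 and 38.70 FPKM on day 0, and on day 7 all 12 libraries lay between 14.07 and 18.32 FPKM. On days 3 and 5, which were not tested against day 0, the libraries had 4.0 to 15.86 FPKM. IGF2BP3 was called lower than on day 0 in all 6 conditions on days 7 and 11. The log2 falls were 1.28 to 1.54 on day 7 and 1.45 to 2.00 on day 11. No comparison of day 11 with day 7 was called for IGF2BP3, although the log2 change in HCl cultures was -0.73 (SE 0.0684, adjusted p = 1.161e-10, edgeR). IGF2BP1 stood at 64.74 and 60.28 FPKM on day 0 and was not called changed on day 7 in any condition, although its log2 difference from day 0 was negative in all 6, from -0.93 (IWP2, SE 0.0748, adjusted p = 1.553e-12, edgeR) to -0.43 (control, SE 0.0741). Whether the 2 genes differ in the timing of their fall was not tested. On day 11 it had fallen in 5 of 6 conditions, by 1.11 to 1.41 on the log2 scale; in the control the libraries had 35.92 and 33.46 FPKM and the log2 change of -0.95 (SE 0.0748) stayed short of 2-fold. The lowest IGF2BP1 libraries of days 0, 7 and 11 were those of NaHCO3 on day 11, at 21.56 and 22.45 FPKM.

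IGF2BP2 was not called changed in any of the 54 comparisons, and HMGA2 in 1 of the 24 day comparisons. IGF2BP2 had 48.53 and 45.84 FPKM on day 0 and 32.36 to 42.05 FPKM over the 12 libraries of day 11. Its largest log2 change from day 0 was -0.54 (SE 0.0791, adjusted p = 3.066e-07, edgeR), with IWP2 and NaHCO3 on day 11. HMGA2 had 27.11 and 27.75 FPKM on day 0, below the other 5 genes there per summed exon length. In the control of day 11 it had 42.48 and 37.17 FPKM. It was called lower than on day 0 in NaHCO3 cultures of day 11 alone, at 7.00 and 8.08 FPKM (log2 -1.77, SE 0.0754, adjusted p = 1.228e-19, edgeR). The IWP2 libraries of day 11 were its highest, at 45.27 and 44.83 FPKM, a log2 difference of 0.64 from day 0 (SE 0.0722).

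The order of the 6 genes per length was therefore different at the ends of the control course. On day 0 it ran from LIN28A through IGF2BP1, LIN28B and IGF2BP2 to IGF2BP3 and HMGA2, with LIN28A above every other gene by far. On day 11 the control had IGF2BP2 (41.8 FPKM) and HMGA2 (39.8 FPKM) on top, with overlapping libraries. They were followed by IGF2BP1 (34.7 FPKM), LIN28A (26.8 FPKM), LIN28B (18.3 FPKM) and IGF2BP3 (14.8 FPKM). This order depends on the summed exon lengths, which run from 4008 bases (LIN28A) to 14808 bases (HMGA2). In undivided counts, HMGA2 had 6959 and 7120 on day 0, more than IGF2BP3 (6214 and 5706), LIN28B or IGF2BP2.

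Counted over the genes, 14 of 36 tests of day 7 against day 0 were called, all lower, where 36% of all gene tests were called in either direction, 19.6% higher and 16.4% lower. Of the tests of day 11 against day 0, 24 of 36 were called, all lower, against 40.5% of all gene tests in either direction, 22.5% higher and 18% lower. The median log2 change of these 36 tests was -1.40, beside 0.05 over all genes. Of the tests of day 11 against day 7, 10 of 36 were called, all lower and all in LIN28A or LIN28B, against 12.7% of all gene tests in either direction, 7.42% higher and 5.32% lower. None of the 36 tests of day 5 against day 3 was called, where 17.5% of all gene tests were (9.53% higher and 8% lower); 10 of the 36 had an adjusted p below 0.05 and 12 an unadjusted p below 0.05 (edgeR), and DESeq2 also called none. The comparisons with day 0 all share the same 2 libraries of undifferentiated cells.

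**Figure D2:**
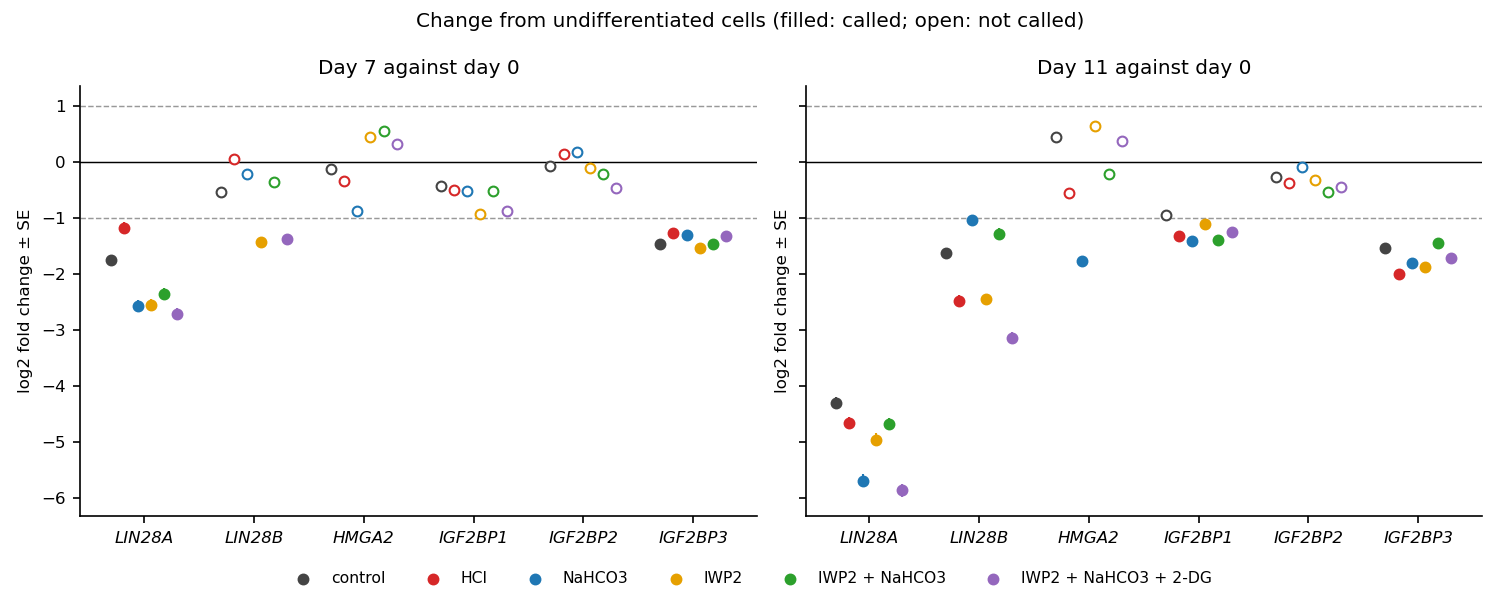
Fitted log2 fold change ± SE from undifferentiated cells on day 7 and day 11 for each gene and condition; filled points are called, open points are not, and dashed lines mark 2-fold. LIN28A and IGF2BP3 are called lower in every condition on both days, IGF2BP2 in none, and HMGA2 only with NaHCO3 on day 11.

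The excess of LIN28A over LIN28B narrowed from day 0 to day 7 and from day 7 to day 11 in all 6 conditions. On day 11 it was smallest in the groups with NaHCO3 and no 2-DG, where LIN28B was the higher of the 2. In undifferentiated cells the FPKM of LIN28A was 9.67 and 9.03 times that of LIN28B. In the control the ratio was 4.08 and 3.99 on day 7 and 1.43 and 1.49 on day 11. In NaHCO3 cultures it was lower on both days, at 1.84 and 1.82 on day 7 and 0.381 and 0.365 on day 11. With IWP2 and NaHCO3 the ratio was 2.27 and 2.45 on day 7 and 0.875 and 0.893 on day 11. LIN28B exceeded LIN28A per length in these 4 libraries of day 11 and in no other of the 50 libraries. With IWP2 alone the ratio on day 11 was 1.63 and 1.67, with HCl 2.08 and 2.03, and after 2-DG was added to IWP2 and NaHCO3 it was 1.37 and 1.45. Days 3 and 5, deposited apart from day 0, did not follow this narrowing in every group. On day 3 the highest ratios were those of HCl, at 14.1 and 18.4, against 7.25 and 9.17 in the control. On day 5 the control had ratios of 11.7 and 9.69. The ratio itself was not tested.

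**Figure D3:**
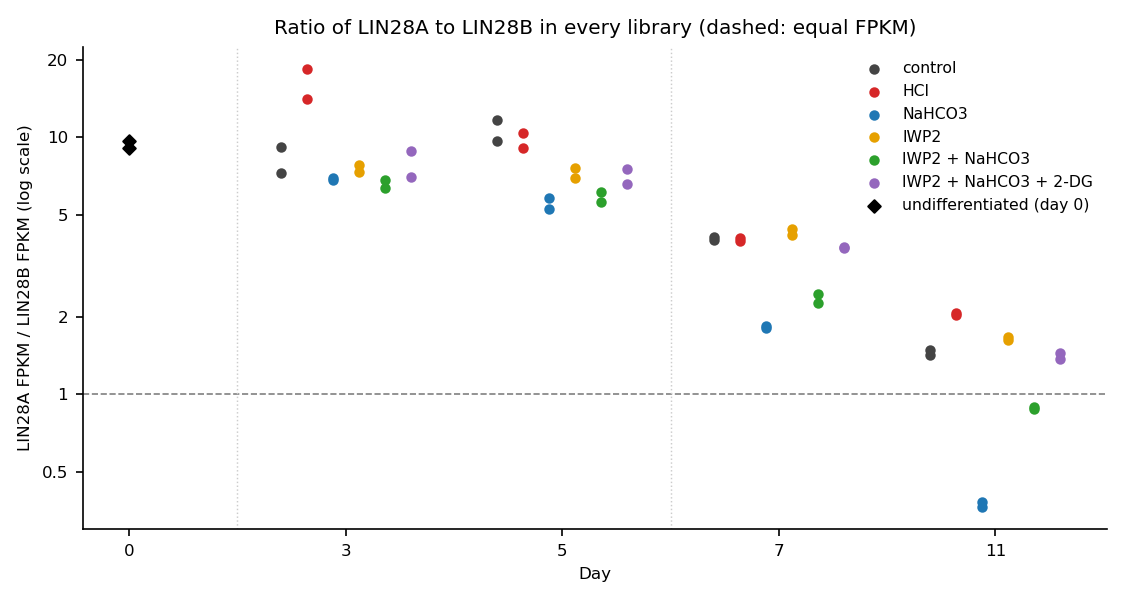
Ratio of LIN28A FPKM to LIN28B FPKM (log scale) in every library by day; the dashed line marks equal levels and dotted lines separate the 2 deposited tables. The NaHCO3 libraries of day 11, at 0.381 and 0.365, and those of IWP2 and NaHCO3, at 0.875 and 0.893, are the 4 below 1.

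The treatment comparisons were counted in the same way. On days 3 and 5, none of the 60 tests (6 genes, 5 contrasts, 2 days) was called, where 7.75% of all gene tests were (3.7% higher and 4.06% lower); 12 had an adjusted p below 0.05 and 20 an unadjusted p below 0.05 (edgeR), and DESeq2 also called none. On days 7 and 11, 8 of 60 tests were called, 2 higher and 6 lower, against 16.6% of all gene tests (7.59% higher and 9.06% lower). As a share of member tests this was 13.33%, below the background. The 8 calls were in LIN28A, LIN28B and HMGA2; none of the 30 tests of the IGF2BP genes on these days was called. Another 36 tests of days 7 and 11 had an adjusted p below 0.05 with a change under 2-fold.

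**Figure D4:**
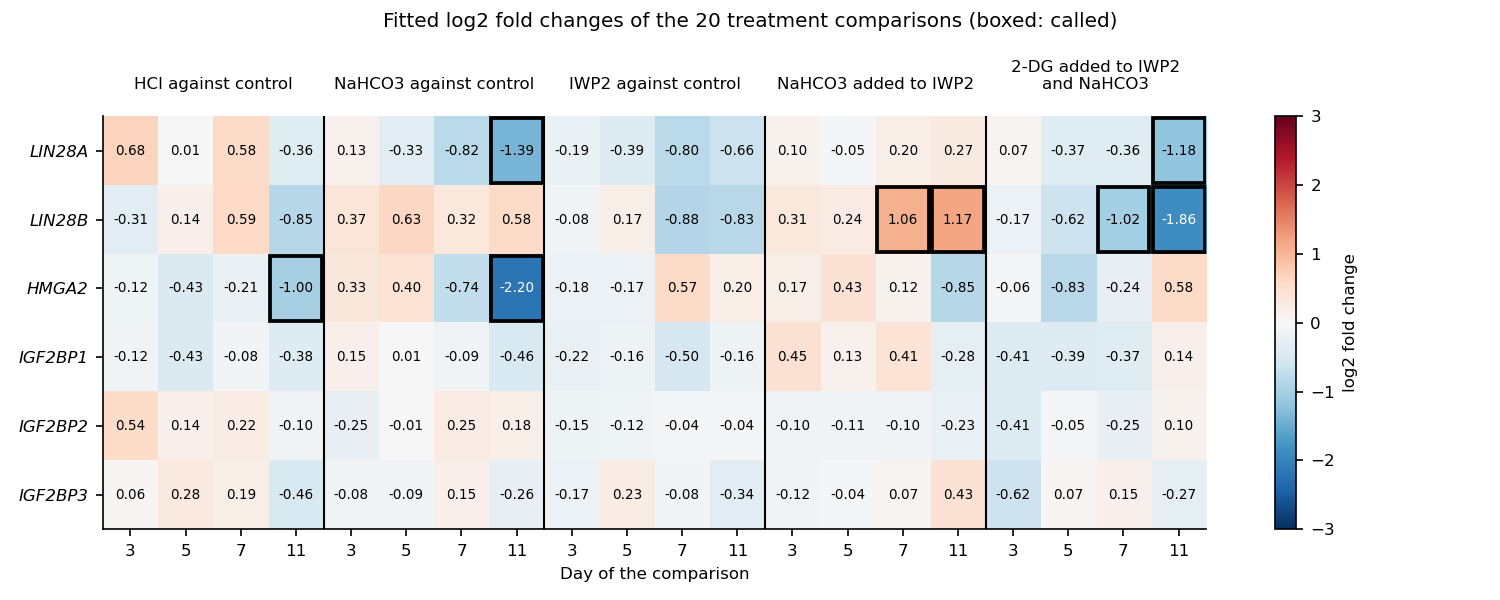
Heat map of the fitted log2 fold change of each gene (rows) in the 5 treatment contrasts on days 3, 5, 7 and 11 (columns); red is higher, blue is lower, the value is written in each cell and boxes mark called tests. All 8 boxes are on days 7 and 11, and the lowest value is HMGA2 with NaHCO3 on day 11, at -2.20.

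HMGA2 was lower with acid and with base late in the course. On day 11 the control libraries had 42.48 and 37.17 FPKM, the HCl libraries 18.74 and 18.78 FPKM and the NaHCO3 libraries 7.00 and 8.08 FPKM, and the 3 groups did not overlap. NaHCO3 lowered HMGA2 on day 11 to 0.218 of the control (log2 -2.20, SE 0.0761, adjusted p = 1.94e-20, edgeR), a comparison in which 16.9% of all genes were called. On day 7 the same contrast, in which 10.2% of all genes were called, gave -0.74 (SE 0.0729), short of 2-fold, and on day 5 it gave 0.40 (SE 0.129, adjusted p = 0.0405, edgeR). HCl lowered HMGA2 on day 11 by 1.00 on the log2 scale (SE 0.0729, adjusted p = 3.737e-13, edgeR), where 21.1% of all genes were called. That call sat at the 2-fold line. It ended without control replicate 1 of day 11 (-0.93), without HCl replicate 1 of day 11 (-0.9993) and with day 11 fitted alone (-0.99).

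In the cultures with IWP2, no treatment comparison of HMGA2 was called. On day 7 the IWP2 libraries had 38.41 and 39.70 FPKM against 28.03 and 28.18 FPKM in the control, a log2 difference of 0.57 (SE 0.0721). On day 11 the cultures with IWP2 and NaHCO3 had 24.08 and 23.57 FPKM, and the log2 difference from IWP2 alone was -0.85 (SE 0.0724, adjusted p = 1.601e-11, edgeR). With 2-DG added on top the libraries of day 11 had 35.11 and 35.28 FPKM, and the log2 difference was 0.58 (SE 0.0723). The same contrast had the opposite sign on day 5, with 12.55 and 11.52 FPKM against 24.47 and 23.64 FPKM (log2 -0.83, SE 0.130, adjusted p = 3.68e-05, edgeR; called, at the 2-fold line, when scaled by library totals), and on day 7 (-0.24, SE 0.0718). NaHCO3 libraries of day 11 thus had less HMGA2 than their counterparts both with and without IWP2, and the difference without IWP2 passed the call.

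LIN28A was lowered by NaHCO3 in the absence of IWP2 and by 2-DG. On day 11 the NaHCO3 libraries had 8.89 and 8.94 FPKM against 25.38 and 28.25 FPKM in the control (log2 -1.39, SE 0.103, adjusted p = 8.687e-12, edgeR). On day 7 they had 81.20 and 89.96 FPKM against 166.42 and 162.47 FPKM, a log2 difference of -0.82 (SE 0.0938) that was not called. NaHCO3 added to IWP2 gave 0.27 on day 11 (SE 0.0999), with 19.05 and 19.62 FPKM against 18.51 and 15.00 FPKM. Whether the effect of NaHCO3 differed with and without IWP2 was not tested. Adding 2-DG to IWP2 and NaHCO3 gave -1.18 on day 11 (SE 0.105, adjusted p = 2.069e-10, edgeR), with 6.91 and 10.09 FPKM; without 2-DG replicate 1 of day 11 the value was -0.95 and the call ended. HCl cultures had more LIN28A than the control on day 3 (log2 0.68, SE 0.105, adjusted p = 5.738e-05, edgeR) and day 7 (0.58, SE 0.0929) and less on day 11 (-0.36, SE 0.0984), none of them called.

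LIN28B was higher with NaHCO3 on days 7 and 11, with and without IWP2, and the difference passed the call only with IWP2. With NaHCO3 added to IWP2, its FPKM was 45.03 and 44.43 on day 7, against 19.86 and 21.49 with IWP2 alone (log2 1.06, SE 0.0915, adjusted p = 7.054e-11, edgeR; 16.7% of all genes called). On day 11 it was 21.76 and 21.98 FPKM against 11.34 and 8.97 FPKM (log2 1.17, SE 0.0956, adjusted p = 1.825e-11, edgeR; 18.5% called). Without IWP2, the log2 difference of NaHCO3 cultures from the control was 0.63 on day 5 (SE 0.132, adjusted p = 0.00209, edgeR). On day 7 it was 0.32 (SE 0.0894, adjusted p = 0.00463, edgeR). On day 11 it was 0.58 (SE 0.0924, adjusted p = 4.782e-06, edgeR). These differences were under 2-fold and were not called. Whether the effect of NaHCO3 on LIN28B differed with and without IWP2 was not tested.

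Adding 2-DG lowered LIN28B again. On day 7 the 2-DG libraries had 21.08 and 20.86 FPKM, 1.02 lower on the log2 scale than IWP2 with NaHCO3 (log2 -1.02, SE 0.0914, adjusted p = 1.744e-10, edgeR; 16.3% called). On day 11 they had 5.04 and 6.94 FPKM (log2 -1.86, SE 0.101, adjusted p = 1.58e-15, edgeR; 21.1% called), the lowest LIN28B of all 50 libraries. IWP2 by itself gave log2 differences from the control of -0.88 on day 7 (SE 0.0914) and -0.83 on day 11 (SE 0.0958), short of 2-fold.

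The 3 IGF2BP genes moved by less than 2-fold in every treatment comparison. On days 7 and 11 the log2 differences ran from -0.50 to 0.41 for IGF2BP1, from -0.25 to 0.25 for IGF2BP2 and from -0.46 to 0.43 for IGF2BP3. The adjusted p was below 0.05 (edgeR) in 6 of 10 of these tests for IGF2BP1, 4 of 10 for IGF2BP2 and 6 of 10 for IGF2BP3. The widest early difference of IGF2BP2 was with HCl on day 3, at 54.82 and 57.78 FPKM against 41.49 and 40.58 FPKM in the control (log2 0.54, SE 0.127, adjusted p = 0.00295, edgeR). On day 3 the 2-DG libraries gave IGF2BP3 values of 4.0 and 11.03 FPKM and IGF2BP1 values of 19.62 and 44.69 FPKM, so the replicates lay far apart. With both libraries neither gene was called (log2 -0.62, SE 0.231, and -0.41, SE 0.193); with only the lower library they were (-1.41 and -1.01), and with only the higher one the values were -0.12 and 0.01.

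The difference between a treatment effect on day 11 and on day 7 was called in 2 of 30 tests, both lower, where 10.3% of all gene tests were called in either direction, 4.38% higher and 5.92% lower; 21 of the 30 had an adjusted p below 0.05 and 22 an unadjusted p below 0.05 (edgeR). LIN28B with HCl stood above the control on day 7, at 62.20 and 56.24 FPKM against 40.78 and 40.74 FPKM, and below it on day 11, at 9.33 and 9.86 FPKM against 17.76 and 18.93 FPKM. The log2 difference turned from 0.59 to -0.85, and the change of effect was -1.44 (SE 0.131, adjusted p = 4.948e-10, edgeR). HMGA2 with NaHCO3 went from -0.74 to -2.20, a change of -1.46 (SE 0.104, adjusted p = 7.588e-12, edgeR). Between days 3 and 5 none of 30 such tests was called, where 8.79% of all gene tests were (4.11% higher and 4.68% lower); 3 had an adjusted p below 0.05 and 8 an unadjusted p below 0.05 (edgeR), and DESeq2 also called none.

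Markers of the cell types that arose moved with these groups. The summed FPKM of 8 cardiomyocyte markers on day 11 was 540 to 742 in the control, 5590 to 5667 with HCl, 27.5 to 28.8 with NaHCO3, 3680 to 3797 with IWP2, 296 to 303 with IWP2 and NaHCO3, and 5557 to 6172 after 2-DG. The sum of 7 stromal markers was 3228 to 3241 in the control of day 11, 6842 to 7037 with NaHCO3 and 3666 to 3738 with IWP2 and NaHCO3. It was between 368 and 739 with HCl, with IWP2 and with 2-DG. The sum of 8 liver and foregut endoderm markers was 3797 to 5162 in the control, NaHCO3 and IWP2 with NaHCO3 groups of day 11 and 156 to 372 in the other 3. None of these markers was at 0 counts in a day 11 group. The 7 proliferation markers summed to 121 to 125 FPKM in the control of day 11, 61.0 to 62.6 FPKM with HCl and 42.7 to 44.0 FPKM with NaHCO3. With IWP2, with IWP2 and NaHCO3 and with 2-DG they summed to 94.3 to 123 FPKM. The 8 pluripotency markers summed to 31.7 to 34.2 FPKM in the control and 28.7 to 29.7 FPKM with NaHCO3. In the remaining groups of day 11 they summed to 16.3 to 35.8 FPKM. NANOG was at 0 counts in the control, NaHCO3 and IWP2 with NaHCO3 groups of day 11. The part of these cell types in the results for the 6 genes was not tested. In bulk RNA, fewer cells that express a gene and less RNA per cell cannot be told apart.

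**Figure D5:**
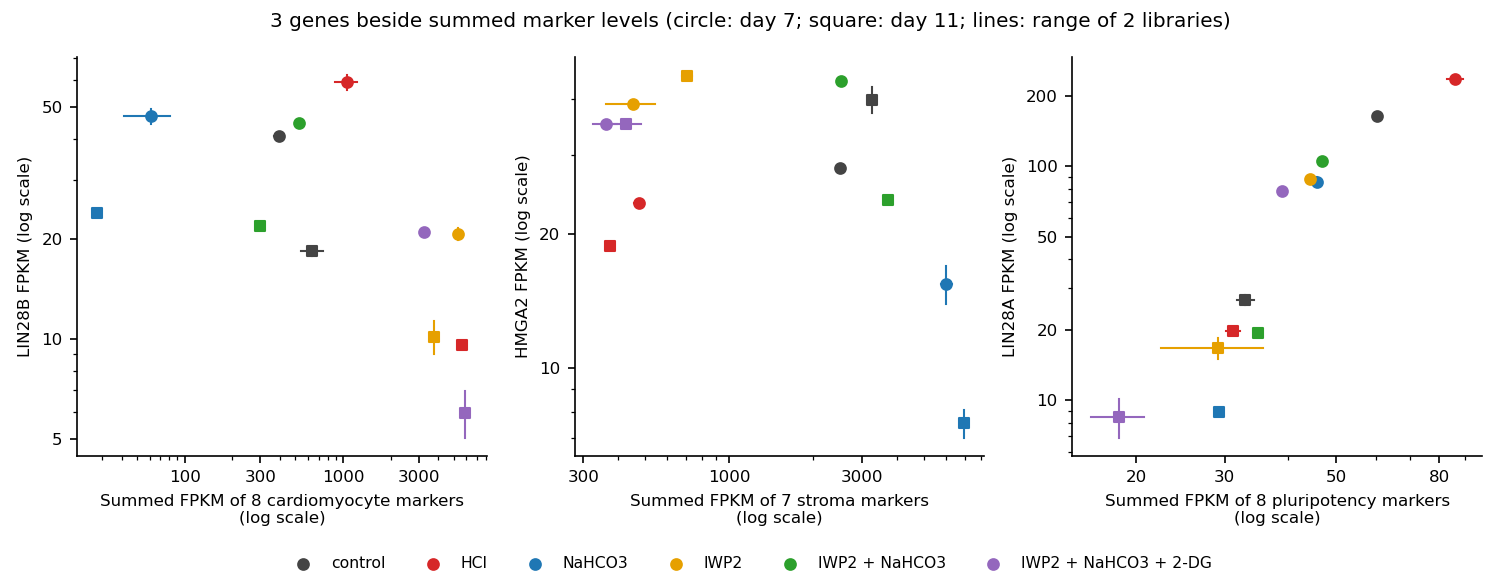
Mean FPKM of LIN28B, HMGA2 and LIN28A (y axes, log scale) against the summed FPKM of 8 cardiomyocyte, 7 stromal and 8 pluripotency markers (x axes, log scale) in the 12 groups of days 7 (circles) and 11 (squares); lines span the 2 libraries of a group. The NaHCO3 group of day 11 has the lowest cardiomyocyte sum (27.5 to 28.8 FPKM), the highest stromal sum (6842 to 7037 FPKM) and the lowest HMGA2 (7.00 and 8.08 FPKM). The HCl group has the next lowest HMGA2 of day 11 (18.74 and 18.78 FPKM). Its stromal sum is low (368 to 382 FPKM) and its cardiomyocyte sum high (5590 to 5667 FPKM).

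Of 15 genes whose products make, load or degrade let-7 or its precursors, all tested, 3 to 4 were called lower and 0 to 1 higher on day 11 than on day 0, depending on the condition, where 18% of all gene tests were called lower and 22.5% higher. None of the 15 was called in 6 of 6 comparisons of day 5 with day 3 and in 5 of 6 of day 11 with day 7. In these 2 sets of comparisons 17.5% and 12.7% of all gene tests were called. AGO1 and AGO2, which carry mature microRNAs, and XPO5, which exports their precursors from the nucleus, fell in all 6 conditions; in the control the log2 changes were -1.84 (AGO1, SE 0.0728), -1.64 (AGO2, SE 0.123) and -1.26 (XPO5, SE 0.0697). AGO4 rose in the HCl (1.31), IWP2 (1.31) and 2-DG (1.26) cultures. None of the 15 was called in 10 of 10 treatment comparisons of days 3 and 5 and in 8 of 10 of days 7 and 11. Of all gene tests, 7.75% and 16.6% were called there. The exceptions were AGO4 with NaHCO3 added to IWP2 (-1.07) and with 2-DG (1.02), both on day 11.

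Other let-7 targets went both ways. Of 27 tested, 10 to 12 were called lower and 3 to 4 higher on day 11 than on day 0, beside 18% and 22.5% of all gene tests. TRIM71, a stem cell RNA-binding protein, also fell: it had 90.0 ± 3.19 FPKM (SD, n = 2) on day 0, 26.8 ± 0.827 in the control of day 7 and 9.40 ± 0.226 in the control of day 11 (log2 -3.36, SE 0.0841, day 11 against day 0). With NaHCO3 on day 11 it had 4.45 ± 0.113 FPKM. PRTG, a cell surface protein of early embryos, and PLAGL1, an imprinted zinc finger factor, rose instead. PRTG went from 1.18 ± 0.0212 FPKM on day 0 to 98.5 ± 4.73 in the control of day 7 and 20.9 ± 0.410 on day 11. PLAGL1 went from 0.08 FPKM in both day 0 libraries to 12.1 ± 0.552 FPKM in the control of day 11 and stayed at 1.42 ± 0.0495 FPKM with HCl.

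Of 18 transcripts listed as hosts or precursors of let-7, 16 were matched by symbol, of which 7 passed the filter on low values on days 3 and 5 and 8 on days 0, 7 and 11. Whether each listed host, among them C9orf3, spans a let-7 gene was not checked. Of the 8 tested, 1 to 4 were called higher and 0 to 1 lower on day 11 than on day 0, beside 22.5% and 18% of all gene tests. Among the 8 were the hairpin genes MIRLET7A1, MIRLET7D, MIRLET7F1, MIRLET7G and MIRLET7I, of 80 to 87 bases, which can pass the filter on few counts. On days 0, 7 and 11 MIRLET7A1 held counts only with HCl on day 11. MIRLET7G was at 0 counts in the control of day 11. These call counts therefore give no reading of let-7 precursor levels. LINC00478, also 1 of the 8 tested, hosts let-7c and had 0 counts in both day 0 libraries. On day 11 LINC00478 stood at 0.560 ± 0.113 FPKM in the control, 1.95 ± 0.134 with HCl, 0.245 ± 0.106 with NaHCO3 and 1.09 ± 0.0849 with IWP2 (SD, n = 2). Its levels in the control and with NaHCO3 lay below the filter value of 1 FPKM.

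IGF2, the growth factor whose mRNA the IGF2BP proteins bind, behaved unlike its binders. IGF2 had 0.765 ± 0.0919 FPKM (SD, n = 2) on day 0 and 831 ± 23 FPKM in the control of day 11. On day 11 it had 1502 ± 71.6 FPKM with NaHCO3 and 71.7 ± 3.61 FPKM with HCl. With IWP2 it had 191 ± 18.1 FPKM, with IWP2 and NaHCO3 1130 ± 48.3 FPKM, and with 2-DG 72.1 ± 21.2 FPKM. In 4 of the 5 contrasts of day 11 the log2 changes of IGF2 were -3.45 (HCl, SE 0.192), 1.05 (NaHCO3, SE 0.176), 2.63 (NaHCO3 added to IWP2, SE 0.185) and -3.96 (2-DG, SE 0.197), all called. For IWP2 against the control only the levels, 191 and 831 FPKM, are given here. Of the 14 tested genes of the IGF2 pathway, 4 to 6 were called higher and 2 to 4 lower on day 11 than on day 0, beside 22.5% and 18% of all gene tests. Another list held 20 genes that write, read or erase the m6A mark, or partner with the IGF2BP proteins. Of these, 1 to 9 were called lower and 0 higher on day 11 than on day 0, beside the same 18% and 22.5%. Among the 20 treatment comparisons the 1 call was ALKBH5, an m6A eraser, with 2-DG on day 11 (1.01, SE 0.0671). Of all gene tests, 7.75% were called in the treatment comparisons of days 3 and 5 and 16.6% in those of days 7 and 11.

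The 6 genes did not share 1 pattern across groups. Over the 13 group means of days 0, 7 and 11, on the scale log2(FPKM + 1), Pearson's r was 0.93 between LIN28A and IGF2BP1, 0.82 between LIN28A and LIN28B and -0.19 between LIN28B and HMGA2. Over the 12 group means of days 3 and 5 the same pairs gave 0.10, 0.0024 and 0.79. These points share libraries and the fall from day 0. Of 16157 genes compared, the one most like each member in both tables (by the lower of the 2 values of r) was MSL2 for LIN28A (0.89 and 0.86), DCP2 for LIN28B (0.85 and 0.87), TBL1XR1 for HMGA2 (0.83 and 0.77), JADE3 for IGF2BP1 (0.93 and 0.91), MAST3 for IGF2BP2 (0.86 and 0.85) and URB1 for IGF2BP3 (0.89 and 0.88), with days 3 and 5 given first.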

How the data were processed

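Counts per gene were deposited by the authors beside FPKM values for 50 RNA-seq libraries, in 2 tables, and the deposited FPKM equal the counts divided by library total and exon length to within 0.0051 in 100% of values. Libraries were made from total RNA, per the labels' protocols, and the submitters' processing notes name cutadapt 1.9.1, HISAT2 2.0.1, HTSeq 0.6.1 and GRCh37; the strand setting is not given in the sources used here. Samples were grouped by treatment and day from their labels. The tests kept genes that reached 1 FPKM in 2 or more libraries of a table (17286 and 18451 genes, 99.57% and 99.63% of counts). Counts were tested with edgeR 4.0.16 in R 4.3.3 (quasi-likelihood, robust, TMM, 1 mean per group over all libraries of the table); SE is the absolute log2 change over the square root of F. Alternatives were DESeq2 1.42.0, limma 3.58.1 on log2(FPKM + 1) and log2(FPKM + 0.1), other scalings, no filter, a replicate block, own days only and each library left out. The scripts were tested on simulated data. The 6 genes are named in full; of each other list, up to 4 called genes with the largest change in a comparison could be named, and per member the 3 most alike genes were ranked. The members and lists were chosen with earlier results of these data known. Total counts of 14090004 to 22796553 limit the precision of low genes.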

Additional observations from a re-analysis of the deposited data

Results flagged for a closer look

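The effect of HCl on LIN28B differed between days 7 and 11 by -1.441 on the log2 scale (SE 0.131, adjusted p = 4.948e-10, edgeR interaction test), being above the control on day 7 in 2 of 2 libraries and below it on day 11 in 2 of 2. For HMGA2 the effect of NaHCO3 differed between the same days by -1.457 (SE 0.104, adjusted p = 7.588e-12, edgeR interaction test), with both NaHCO3 libraries below both control libraries on each day.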

How the results depend on the processing

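Of 324 values of the 6 genes, 58 were called; 9 of 4278 alternative values ended a call, in 4 results, 21 added one, in 15 results, and 0 called values changed sign, while 146 of 3574 alternative values of uncalled results did. DESeq2, upper-quartile scaling, no filter and the replicate block ended 0 and added 0 calls; library totals added 5. Under the replicate block 2 treatment tests were called higher and 6 lower, 48 day tests lower and 2 interactions lower. Replicate numbers were not taken as pairs, since the correlation of same-numbered deviations ran from -0.110 to 0.293 (66 pairs of groups, 2 over 0.1) and from -0.0595 to 0.0647 (78 pairs). In limma with pseudocount 1 the gene calls summed over comparisons were 23667 for treatment (main 44119), 73276 for day (116976) and 11137 for interactions (17096); the cause was not tested. Leaving out 1 library gave 5 to 8 treatment tests lower and 2 higher, 47 to 49 day tests lower and 0 to 1 higher, and 2 to 4 interactions lower and 0 to 1 higher; the gene sums were 43448 to 45926, 113361 to 118185 and 16558 to 18263. The median log2 change of all genes lay between -0.0776 and 0.0647 in the main test and between -0.224 and 0.172 with library totals.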
